A study of Mus musculus with 6 samples.

Results

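The 5 receptors for fibroblast growth factors (FGFs) on these arrays, Fgfr1, Fgfr2, Fgfr3, Fgfr4 and Fgfrl1, and 5 inhibitors of the ERK kinases downstream of them, Spry1, Spry2, Spry4, Dusp4 and Dusp6, were followed through the differentiation of C2C12 cells. All probe sets that the platform annotation assigns to 1 of these symbols alone were taken, whatever their signal. They were 24 of the 45037 probe sets tested, 15 for receptors, 7 for Sprouty genes and 2 for phosphatases, and 10 of the 18193 genes so named. C2C12 is an immortalised line of mouse myoblasts. Proliferating cells were kept in 20% foetal calf serum, and differentiated cells were taken on day 6 in 2% horse serum. By the study's account only part of such a culture forms myotubes and the rest stays mononucleated, so the differentiated samples are mixtures. Growth medium, serum species and time in culture differ together between the groups and cannot be told apart. Each group had 3 RNA samples, 1 per array, labelled as biological replicates. The study's methods describe each sample as a mixture of pools of several plates, so p-values measure the spread between pooled samples of 1 line, not between single cultures.

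FGFs bind receptor tyrosine kinases at the cell surface together with heparan sulfate, and the activated receptors signal through adaptors, Ras and Raf to the kinases MEK and ERK. Active ERK induces its own inhibitors, among them the Sprouty proteins, which act between the receptor and Raf, and dual-specificity phosphatases, which remove phosphate from ERK. In cultured myoblasts FGF signalling is known for keeping cells dividing and holding back differentiation, which begins when growth factors are withdrawn. Fgfrl1 differs from the other receptors in lacking the intracellular tyrosine kinase domain.

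Of the 10 genes, 3 were higher in differentiated cells, Spry1 by 3.76-fold, Spry2 by 2.07-fold and Fgfrl1 by 1.42-fold, and Dusp4 was 2.06-fold lower. Fgfr1, the brightly detected receptor kinase, and the phosphatase gene Dusp6 did not pass the test. Fgfr2, Fgfr3, Fgfr4 and Spry4 lay near or at background. The values are linear MAS5 signals. Fold changes are on the scale of log2(signal + 15), and a difference was called where limma gave a p under 0.05 after Benjamini-Hochberg adjustment over all probe sets. Every adjusted p below comes from that fit unless another setting is named.

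The sequences upstream of the 3 genes that were called higher are shown so that these members can be set side by side, with matches to a pair of motifs. These are the E-box (CANNTG, which reads the same way on the other strand), bound by the MyoD family and other basic helix-loop-helix proteins, and the ETS core (CCGGAA, or TTCCGG on the other strand), bound by the ETS factors that ERK acts on. Each is the 250 bases before the RefSeq start of the gene in the mouse build GRCm38.p6, written 5′ to 3′ on the gene's strand, with motif matches in capitals.
Spry1, chr3:37639697-37639946, forward strand: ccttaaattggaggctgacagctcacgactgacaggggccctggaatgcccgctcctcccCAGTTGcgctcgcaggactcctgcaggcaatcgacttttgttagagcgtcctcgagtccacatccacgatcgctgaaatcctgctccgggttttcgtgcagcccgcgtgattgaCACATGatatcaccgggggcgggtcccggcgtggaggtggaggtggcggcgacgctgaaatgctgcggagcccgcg
Spry2, chr14:105896820-105897069, reverse strand: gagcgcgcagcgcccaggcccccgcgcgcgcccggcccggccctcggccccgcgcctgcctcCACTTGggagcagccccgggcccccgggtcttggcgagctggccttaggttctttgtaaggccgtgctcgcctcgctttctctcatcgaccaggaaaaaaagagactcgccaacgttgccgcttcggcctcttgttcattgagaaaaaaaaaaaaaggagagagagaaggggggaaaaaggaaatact
Fgfrl1, chr5:108693979-108694228, forward strand: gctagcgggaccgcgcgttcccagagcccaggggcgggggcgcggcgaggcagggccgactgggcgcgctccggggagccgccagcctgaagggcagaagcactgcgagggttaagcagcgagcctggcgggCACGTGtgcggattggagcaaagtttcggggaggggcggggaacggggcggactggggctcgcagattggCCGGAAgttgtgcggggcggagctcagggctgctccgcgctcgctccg
The Spry1 window held 2 E-boxes, starting 190 and 76 bases before the gene start, and the Spry2 window held 1, at 188 bases. In the Fgfrl1 window there was 1 E-box at 118 bases and 1 ETS core at 48 bases, and the matches did not overlap. Over all 32851 RefSeq promoter windows of this length, 66.2% held an E-box and 12% an ETS core, so an E-box is the usual state of such a window. A match is a run of letters and not a measured binding site. RefSeq promoters were matched for 7 of the 10 genes, and Dusp4, the gene called lower, was not among them. Windows of Fgfr2, Fgfr3, Fgfr4 and Dusp6, which were not called, also held an E-box, and that of Fgfr4 an ETS core.

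The arrays were alike in overall signal, with medians from 68.0 to 73.0 in proliferating and from 72.3 to 81.4 in differentiated cells. Background was read from 27 probe sets that match Bacillus subtilis, absent from the cells. The highest of their signals on an array, 51.9 to 87.0, was the limit for that array. The cell types named in the labels were checked against markers. The summed signal of 9 myoblast and muscle markers ran from 6707.9 to 7668.5 in proliferating and from 61505.8 to 64308.2 in differentiated cells, with 7 higher, and Myod1 and Myf5, the myoblast regulators, were above the limit on every array. For 4 markers of dividing cells the sums were 12004.3 to 12347.5 and 1021.2 to 1096.8, with all 4 lower, and Mki67 remained above the limit in differentiated cells. The sums of 4 adipocyte markers were 558.3 to 604.6 and 746.0 to 870.7, with Cebpa higher, Pparg lower and Adipoq, which defines the fat cell, above the limit on only 1 array. Markers of bone and cartilage (4 genes, 208.8 to 309.8 and 350.1 to 427.9) and of endothelium and blood (5 genes, 281.5 to 354.6 and 293.8 to 309.4) had no call. The ratio of the 3′ to the 5′ actin control was 1.23 to 1.31 on proliferating and 1.07 to 1.11 on differentiated arrays, a measure of RNA quality that moved with the groups, and its part in the results was not tested. The same ratio for Gapdh was 0.822 to 0.855 and 0.789 to 0.833, and there the groups overlapped.

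Among the member probe sets, 5 of 24 were called, 4 higher and 1 lower, where 12.6% of all probe sets were called (6.14% higher and 6.43% lower). Counted by the brightest probe set of each gene, 4 of 10 genes were called, 3 higher and 1 lower, against 17.6% of all genes (8.63% higher and 9.0% lower). The groups did not overlap in 6 of 24 probe sets and 4 of 10 genes, where 27.2% of all probe sets and 33.4% of all genes had such groups. The median log2 fold change was -0.07 over the 10 genes and 0.06 over all genes. The share of members called was above the background by gene and by probe set, on few members. The share without overlap was close to that of all probe sets and genes. The members were chosen with earlier results of these data known, so a higher share called cannot be told apart from that choice. Of the 24 probe sets, 9 were above the limit on all 6 arrays and 4 were at background on all 6. Since the arrays measure whole cultures, fewer cells of a type and less RNA per cell cannot be told apart, here and for every gene below.

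**Figure D1:**
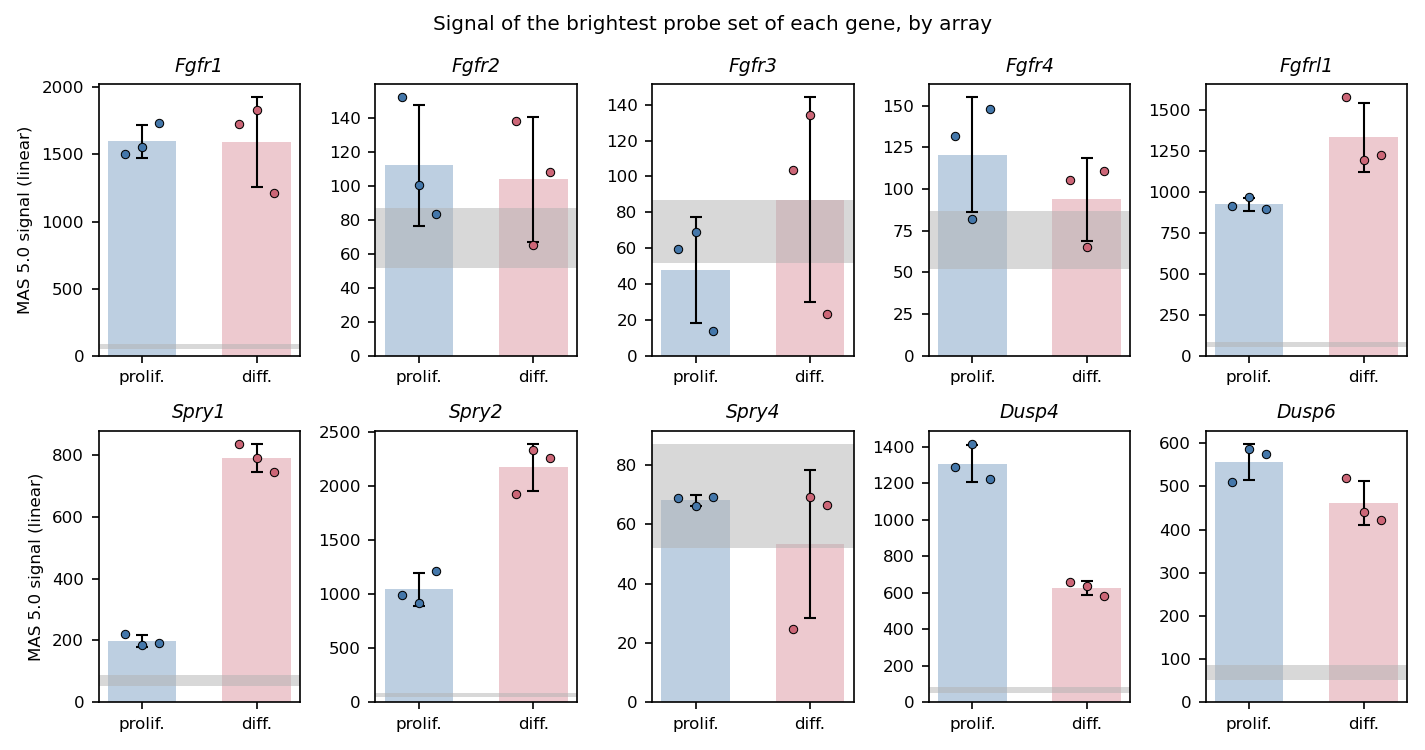
Signal of the brightest probe set of each of the 10 genes, with the MAS5 signal (linear) on the y axis and the proliferating and differentiated groups on the x axis; points are arrays, bars are means, error bars are SD (n = 3), the grey band spans the background limits of the arrays, and each panel has its own scale. The differentiated arrays lie above all proliferating ones for Spry1, Spry2 and Fgfrl1 and below them for Dusp4, while Fgfr2, Fgfr3, Fgfr4 and Spry4 lie in or near the band.

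Fgfr1, the receptor kinase best known in myoblasts, was bright in both groups. Its brightest probe set had signals of 1500.8, 1556.2 and 1731.1 in proliferating and 1728.2, 1833.6 and 1211.3 in differentiated cells. The groups overlapped, and differentiated replicate 3 was the lowest of the 6 arrays. The means were 1596 ± 120 and 1591 ± 333 (SD, n = 3 each), and the log2 fold change was -0.02 (standard error, SE, 0.14, 95% interval -0.33 to 0.28, adjusted p = 0.95). A second bright probe set gave 1352.9, 1624.0 and 1495.8 against 1760.3, 1715.1 and 1388.3, and 0.12 on the log2 scale (95% interval -0.13 to 0.36, adjusted p = 0.64). There too the groups overlapped through differentiated replicate 3. The dimmest one had 114.4 to 161.4 in proliferating and 149.1 to 189.2 in differentiated cells (log2 fold change 0.34, 95% interval -0.19 to 0.86, adjusted p = 0.48). The sign of the first value was not stable, since it was 0.16 without differentiated replicate 3, 0.03 without proliferating replicate 3 and 0.02 after quantile normalization, with no alternative passing the test. The intervals of both bright probe sets together span log2 changes from -0.33 to 0.36.

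Fgfr2, Fgfr3 and Fgfr4 encode the other receptor kinases, of which Fgfr4 is known from differentiating and regenerating muscle. Their 10 probe sets had signals from 4.6 to 152.1, none was called and none was above the limit on all 6 arrays. For Fgfr2 the brightest probe set had 152.1, 100.7 and 83.5 in proliferating and 138.4, 65.4 and 108.1 in differentiated cells. These overlapped, with 1 differentiated array under its limit (log2 fold change -0.11, 95% interval -0.88 to 0.66, adjusted p = 0.91). The other Fgfr2 probe sets gave 0.14 and 0.15, and the sign of the brightest turned without proliferating replicate 1 (0.11) or differentiated replicate 2 (0.15).

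Fgfr4 was represented by 5 probe sets, 2 of them at background on every array. The brightest, of a type whose probes can match other transcripts, had 131.6, 81.9 and 148.0 in proliferating and 105.3, 65.3 and 110.9 in differentiated cells. The groups overlapped and the log2 fold change was -0.31 (95% interval -1.05 to 0.43, adjusted p = 0.68). Of the other probe sets above the limit on some array, both had a positive value, 0.94 (adjusted p = 0.43) and 0.66 (adjusted p = 0.55), so the probe sets of this gene differed in sign. The probe sets of Fgfr4 thus give no direction.

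The Fgfr3 signals varied widely between arrays of a group. Its brightest probe set gave 59.7, 69.3 and 14.1 against 103.4, 134.0 and 23.4, and replicate 3 of each group lay far under the others (log2 fold change 0.63, 95% interval -0.69 to 1.95, adjusted p = 0.63). The other probe set had 28.0, 12.3 and 18.5 in proliferating cells, all at background, and 118.1, 32.6 and 123.8 in differentiated cells, of which replicate 2 was at background. Here the groups did not overlap, and the log2 fold change was 1.49 (SE 0.53, 95% interval 0.33 to 2.66), with an unadjusted limma p of 0.016 and an adjusted p of 0.1. Without differentiated replicate 2 it was 2.0 with an adjusted p of 0.0344, the only alternative of 13 in which it passed.

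Fgfrl1, the receptor without a kinase domain, was the only receptor gene called, and both of its probe sets were higher in differentiated cells. The brighter had 910.0, 968.2 and 892.6 in proliferating and 1574.0, 1193.8 and 1222.9 in differentiated cells, and the dimmer 612.5, 597.2 and 444.5 against 875.9, 757.0 and 759.5. In both the groups did not overlap, with differentiated replicate 1 the highest array. The means of the brighter probe set were 924 ± 39.6 and 1330 ± 212 (SD, n = 3 each), and the log2 fold change was 0.51 (SE 0.12, 95% interval 0.25 to 0.76, adjusted p = 0.011). For the dimmer they were 551 ± 92.9 and 797 ± 67.9, with a log2 fold change of 0.53 (SE 0.14, adjusted p = 0.022) and 1.45-fold. The rise was under 1.5-fold in both and the call was fragile. Without differentiated replicate 1 the adjusted p-values were 0.0613 (log2 fold change 0.38) and 0.112 (0.46), without proliferating replicate 3 they were 0.0501 (0.48) and 0.0836 (0.39), and under limma without an intensity trend they were 0.185 and 0.199.

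Spry1 rose most of the 10 genes. This Sprouty protein is known for its part in the return of muscle stem cells to quiescence. Its single probe set had signals of 221.1, 185.2 and 191.7 in proliferating and 834.7, 789.6 and 745.0 in differentiated cells. Every differentiated array was far above every proliferating one, and all were above the background limit. The means were 199 ± 19.1 and 790 ± 44.9 (SD, n = 3 each), and the log2 fold change was 1.91 (SE 0.13, 95% interval 1.62 to 2.2, adjusted p = 8.4e-07). In all 15 alternatives it passed, with log2 fold changes of 1.75 to 1.98.

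Spry2, the Sprouty protein most studied as an inhibitor of receptor tyrosine kinase signalling, rose as well. The brighter of its 2 probe sets had 994.0, 918.4 and 1218.6 in proliferating and 1925.5, 2330.0 and 2261.3 in differentiated cells. Again the groups did not overlap. The means were 1044 ± 156 and 2172 ± 216 (SD, n = 3 each), and the log2 fold change was 1.05 (SE 0.12, 95% interval 0.79 to 1.31, adjusted p = 5.9e-05). The other probe set was dim, and above the limit on 2 proliferating and 3 differentiated arrays. It had 68.3 to 78.2 against 54.3 to 100.5 and a log2 fold change of 0.04 (95% interval -0.8 to 0.88, adjusted p = 0.97). Spry2 passed in all 15 alternatives, the lowest value being the 0.55 of its averaged probe sets.

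Spry4, the remaining Sprouty gene, had 4 probe sets, 2 of them at background on all arrays, and none was called. The brightest had 68.9, 66.0 and 69.1 in proliferating and 24.6, 69.1 and 66.5 in differentiated cells, with differentiated replicate 1 far under the rest. The log2 fold change was -0.36 (95% interval -1.35 to 0.63, adjusted p = 0.73), and on only 2 proliferating arrays and 1 differentiated array was the signal above the limit. No test of a difference between the Sprouty genes was made.

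Dusp4 and Dusp6 encode phosphatases that inactivate ERK, Dusp4 in the nucleus and Dusp6 in the cytoplasm. Dusp4 had signals of 1289.8, 1416.9 and 1222.0 in proliferating and 661.6, 635.9 and 584.7 in differentiated cells. All differentiated arrays were below all proliferating ones, and the arrays within a group lay close together. The means were 1310 ± 98.9 and 627 ± 39.1 (SD, n = 3 each), and the log2 fold change was -1.04 (SE 0.11, 95% interval -1.27 to -0.81, adjusted p = 2e-05). It passed in all 15 alternatives, between -1.09 and -0.99. Dusp4 thus moved in the direction opposite to Spry1 and Spry2.

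For Dusp6 the signals were 509.4, 585.7 and 575.9 in proliferating and 519.3, 441.3 and 422.6 in differentiated cells. The groups overlapped by 1 array, differentiated replicate 1. The means were 557 ± 41.5 and 461 ± 51.3 (SD, n = 3 each), and the log2 fold change was -0.27 (SE 0.13, 95% interval -0.55 to 0.01, adjusted p = 0.25). Its value was negative in all alternatives, from -0.35 to -0.21, and passed in none.

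**Figure D2:**
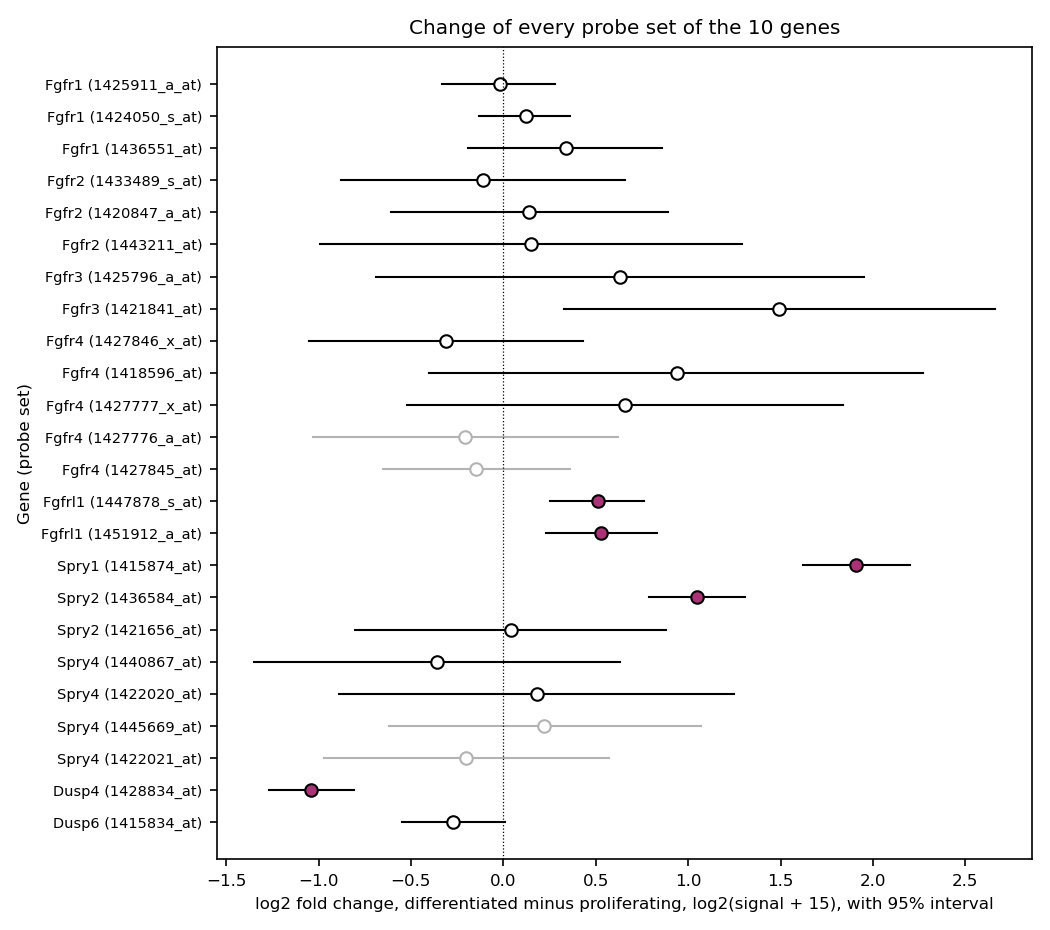
Log2 fold change of each of the 24 probe sets, differentiated minus proliferating, with its 95% interval on the x axis and the gene and probe set on the y axis; filled points passed the test, open points did not, and grey marks probe sets at background on all arrays. The 5 filled points are both Fgfrl1 probe sets, Spry1, 1 probe set of Spry2 and Dusp4, and the widest intervals belong to Fgfr3 and Fgfr4.

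The other genes of the pathway were taken from lists by their place in it, each gene by its brightest probe set. Genes that did not pass are named for their place in the pathway, after their values were seen. Of 22 FGF genes, 2 were higher, 1 was lower and 19 missed the threshold, with a median log2 fold change of 0.13. The share called of all genes was 17.6% (8.63% higher and 9.0% lower). Only 1 of the FGF genes was above the limit on all 6 arrays and 5 were at background on all. For most of them the signal thus did not clear the limit on every array. Fgf21, a hormone-like FGF known to be released by liver and by stressed muscle, had 38.9, 31.7 and 22.7 in proliferating cells, all at background, and 1742.6, 1607.3 and 1982.4 in differentiated cells. It was at least 26.7-fold higher (adjusted p = 1.4e-09). The receptor partner of this hormone, Klb, was above the limit on 1 of 6 arrays, and Kl, the partner of Fgf23, on none.

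Fgf11, which belongs to the FGF homologous factors that stay inside the cell, had 9.7, 18.1 and 5.7 against 142.7, 136.6 and 114.6. With the proliferating group at background it was at least 1.97-fold higher (adjusted p = 0.0021). Its other probe set, at background on all arrays, gave -0.02. Fgf7, a secreted ligand of a splice form of Fgfr2 found in epithelia, was lower, with 956.1, 647.6 and 769.1 in proliferating and 325.0, 367.6 and 322.6 in differentiated cells. Its groups did not overlap, and the log2 fold change was -1.17 (SE 0.15, adjusted p = 0.00013). Fgf2 had 30.4 to 74.1 against 33.0 to 54.1 and did not pass (log2 fold change -0.21, adjusted p = 0.86).

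The proteins that bind FGFs or their receptors outside the cell were higher where they were called. Of 14 co-receptors, heparan sulfate proteoglycans and FGF-binding proteins, 4 were higher, none was lower and 10 did not pass. The median log2 fold change was 0.47 against 0.06 over all genes, of which 8.63% were called higher and 9.0% lower. Syndecan-2 (Sdc2) had 1480.6, 1353.8 and 1656.9 in proliferating and 5501.2, 5789.8 and 5082.5 in differentiated cells. No array of 1 group reached the other, and the log2 fold change was 1.86 (SE 0.1, adjusted p = 8.3e-08), or 3.63-fold. Glypican-1 (Gpc1) had 5325.4, 5663.9 and 5099.9 against 9659.3, 8804.1 and 9702.6, a log2 fold change of 0.81 (SE 0.1, adjusted p = 8.9e-05). Fgfbp1, a carrier that frees FGFs from the matrix, went from 226 ± 23.6 to 432 ± 92.8 (0.88, adjusted p = 0.0046), and syndecan-1 (Sdc1) from 2558 ± 169 to 3964 ± 533 (0.62, adjusted p = 0.002), each as mean ± SD with n = 3. Syndecan-3, syndecan-4 and glypican-3 had log2 fold changes of -0.19, -0.09 and -0.31 and did not pass. Dimmer probe sets of Flrt2 (0.73, adjusted p = 0.0066) and Gpc6 (0.72, adjusted p = 0.021) passed, although the brightest ones of these genes did not. Under limma without an intensity trend the calls of Fgfbp1 and Sdc1 were lost (adjusted p = 0.0691 and 0.115).

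Between the receptors and ERK, calls were read against the 17.6% of all genes that were called. Of 12 measured adaptors, 2 were higher, Sos2 (log2 fold change 0.82, adjusted p = 0.028) and Sos1 (0.57, adjusted p = 0.011), which both load Ras with GTP, and 10 did not pass. Sos2 lost its call in 5 of the 6 fits that left out 1 array, with values of 0.53 to 0.88, and passed only without proliferating replicate 1. Sos1 lost its call without differentiated replicate 1 (0.52, adjusted p = 0.0672), and no other of its 5 probe sets passed. Grb2, Shc1 and Frs3, other adaptors of the list, had log2 fold changes of 0.17, 0.01 and 0.45 and did not pass. Frs2, also listed, had no probe set assigned to it alone. A dimmer probe set of Gab1 was called higher (0.99, adjusted p = 0.0095) and a dimmer one of Crk lower (-0.4, adjusted p = 0.039). The brightest probe sets of Gab1 and Crk did not pass.

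Among 8 measured genes of the Ras-ERK cascade, 2 were higher and 1 was lower. Araf, a Raf kinase, had 599 ± 63.3 in proliferating and 1169 ± 75 in differentiated cells (SD, n = 3 each, log2 fold change 0.95, adjusted p = 7.8e-05), although another of its probe sets gave -0.12 (adjusted p = 0.66). Ksr1, a scaffold of the cascade, had a log2 fold change of 0.86 (adjusted p = 0.035) that failed in 8 of 14 alternatives. Of the fits without 1 array, it passed only in the one without proliferating replicate 3, the others giving 0.76 to 0.92. Another Ksr1 probe set, above the limit on every array, gave 0.05 (adjusted p = 0.95), and the dimmest gave 0.32 (adjusted p = 0.85). Nras, a Ras protein, fell by 0.57 on the log2 scale (adjusted p = 0.0085), and all 3 of its probe sets were lower. Braf, Map2k1 and Map2k2 had values of -0.06, 0.24 and -0.17 and did not pass.

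Other inhibitors of the pathway split in both directions. Of 20 such genes, 5 were lower, 2 were higher and 13 missed the threshold, with a median log2 fold change of -0.18. Among all genes 9.0% were called lower and 8.63% higher. Dusp5, a nuclear phosphatase of ERK, had 389.5, 359.0 and 376.0 in proliferating and 64.7, 60.1 and 103.9 in differentiated cells. Its differentiated arrays were near the limit, and the log2 fold change was -2.13 (SE 0.24, adjusted p = 4.4e-05). Errfi1, an inhibitor of the EGF receptor that growth factors induce, had 2005.4, 1838.1 and 1969.8 against 1081.8, 981.0 and 1036.0, a log2 fold change of -0.9 (adjusted p = 2.5e-05). Spred2, a relative of the Sprouty proteins, had 1225 ± 75.5 in proliferating and 767 ± 96.3 in differentiated cells (SD, n = 3 each, log2 fold change -0.67, adjusted p = 0.0015), and none of its other 4 probe sets passed.

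Dusp8, a phosphatase known mainly for the stress kinases, was the gene of that list with the largest positive value among those called. It had 26.4, 42.9 and 40.5 in proliferating cells, all at background, and 192.5, 226.6 and 111.3 in differentiated cells, and was at least 2.56-fold higher (adjusted p = 0.006, and 0.0546 without differentiated replicate 2), and neither of its other 2 probe sets passed. The 3 remaining calls, chosen for naming after their values were seen, were Spred1 (log2 fold change -0.65, adjusted p = 0.015), Rasa3 (-0.6, adjusted p = 0.0043) and Dusp1 (0.58, adjusted p = 0.01). Spred1 is a relative of Sprouty, Rasa3 switches off Ras, and Dusp1 is a phosphatase of several MAP kinases. None of the other 7 probe sets of Spred1 passed, and their values had both signs. Spred1 lost its call without proliferating replicate 1, differentiated replicate 1 or differentiated replicate 3 (-0.6 to -0.55).

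Genes known as targets of ERK signalling, either induced by it or, like the Elk factors, acted on by the kinase itself, were lower where they were called. Of 15 measured, 11 were lower, none was higher and 4 did not pass, with a median log2 fold change of -0.73. Over all genes the median was 0.06 and 9.0% were called lower. Etv4, an ETS factor induced by FGF, had 198.1, 205.7 and 261.7 in proliferating cells and 13.9, 16.0 and 13.5 in differentiated cells, all of the latter at background. It was at least 3.72-fold lower (adjusted p = 0.00015), while its dim second probe set gave 0.84 (adjusted p = 0.38). Fosl1, a subunit of the AP-1 factor, had 1721.6, 1908.4 and 1856.8 against 429.2, 512.3 and 411.7. Those groups were far apart, with a log2 fold change of -1.99 (SE 0.11, adjusted p = 1.1e-07).

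Plaur, the urokinase receptor, had 1182 ± 82.7 in proliferating and 284 ± 50.8 in differentiated cells (SD, n = 3 each, log2 fold change -2.01, adjusted p = 6.1e-07). Hmga2, a chromatin protein of growing cells, had 3997 ± 739 and 1096 ± 95.6 (log2 fold change -1.84, adjusted p = 8.4e-07). The remaining 7 of the 11, outside the rule for named genes, had log2 fold changes of -1.47 (Ccnd1) to -0.34 (Egr1). Egr1 passed in only 7 of 14 alternatives, and of the fits without 1 array only in those without replicate 3 of either group. Ier3 lost its call without proliferating replicate 2 (-0.44, adjusted p = 0.0506) or differentiated replicate 1 (-0.54, adjusted p = 0.0759). Etv5, a second ETS factor of the FGF response, had 87.4 to 142.2 against 116.2 to 153.3 and did not pass (0.23, adjusted p = 0.72), nor did Elk1, Elk4 and Fos. Several of these genes also depend on the cell cycle, and the summed signal of the 4 markers of dividing cells fell with them. The part of that change in their values was not tested.

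**Figure D3:**
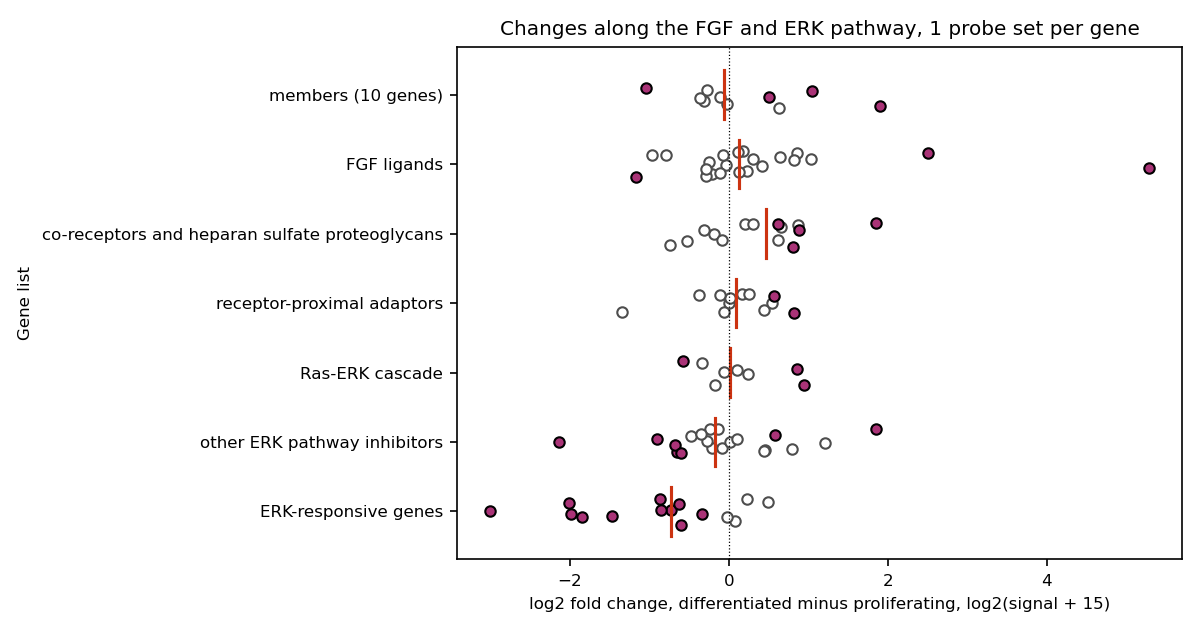
Log2 fold change (x axis, differentiated minus proliferating) of each gene by its brightest probe set, for the 10 genes and the 6 pathway lists (y axis); filled points passed the test, open points did not, and the red bar is the median of the list. The median is -0.73 for the ERK-responsive genes and 0.47 for the co-receptors and proteoglycans, and the point farthest right is Fgf21, whose value depends on the constant added to its background signal.

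**Figure D4:**
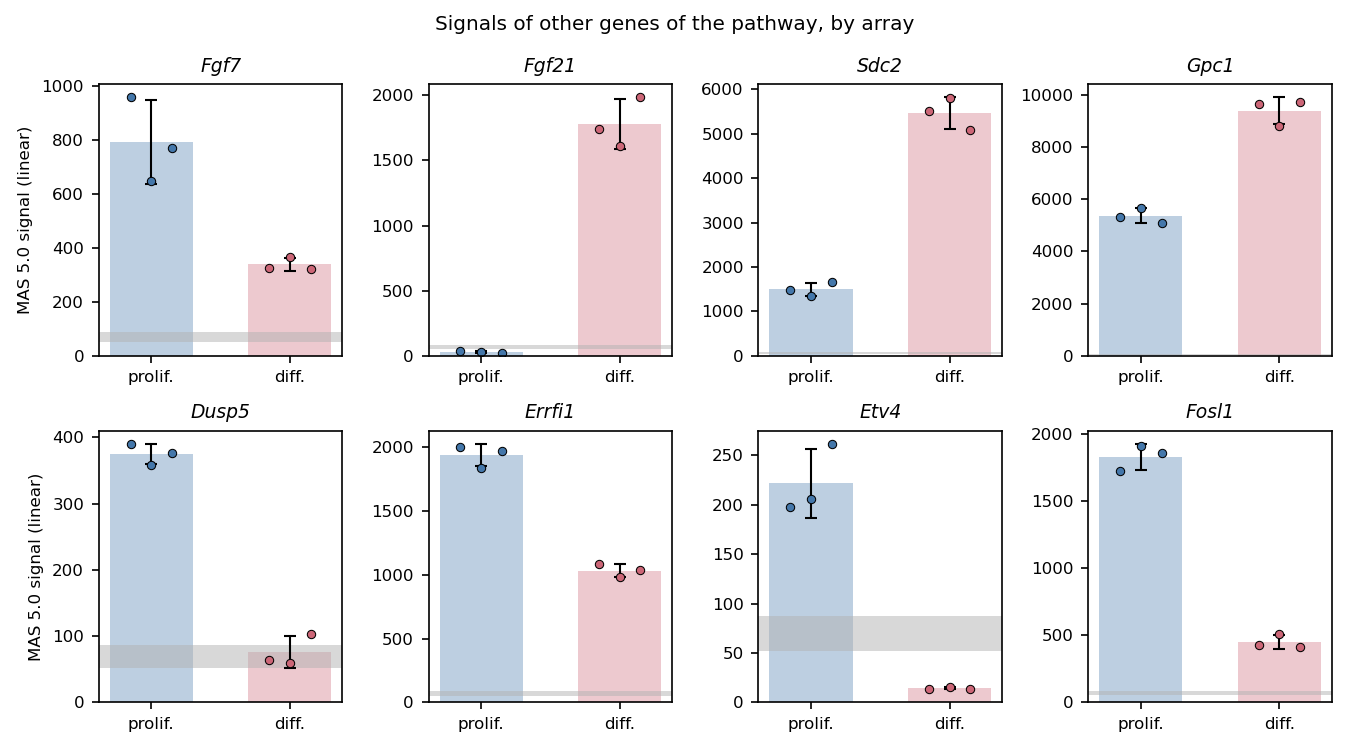
Signals of 8 other genes of the pathway on each array, with the MAS5 signal (linear) on the y axis and the 2 groups on the x axis; points are arrays, bars are means, error bars are SD (n = 3), the grey band spans the background limits, and scales differ between panels. In none of the 8 do the groups overlap, and Fgf21 in proliferating cells and Etv4 in differentiated cells lie under the band.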

How the data were processed

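RNA of C2C12 cells was hybridised to 6 Affymetrix mouse expression arrays, 3 per group. The authors deposited intensity values on a linear scale, MAS5 signals per the labels, each array scaled to a trimmed mean of 250.0. The study's GCRMA step needs probe-level data, which were not used here. After 64 Affymetrix controls were left out, log2(signal + 15) of 45037 probe sets was fitted by lmFit and eBayes with trend (limma 3.58.1, R 4.3.3), 2-sided, with Benjamini-Hochberg adjustment over all of them. The script was tested on simulated data. Of the probe sets, 34945 carry 1 symbol, 932 several and 9160 none here. All symbols of the 10 genes match RefSeq. A fold against a group at background on all 3 arrays is a bound, the mean log2 signal of the other group minus the mean log2 limit. The members and lists were chosen with earlier results of these data known. Of each list, up to 4 passing genes with the largest change and 1 group above background on all arrays are named. Alternatives covered normalization, pseudocount, dim probe sets, variance model, regularized t-test, replicate block, left-out arrays, a 1.5-fold threshold and averaged probe sets. Other software was Python 3.11.15, pandas 2.3.3, numpy 2.4.6 and matplotlib 3.10.9. The number of arrays limits the precision.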

Additional observations from a re-analysis of the deposited data

How the results depend on the processing

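Of 709 alternative values of the genes named from a call and of the members, some averaged over the probe sets of a gene, 648 kept their direction and their side of the threshold, 52 kept the direction and lost the call, 1 gained it and 8 changed sign. Leaving out 1 array moved the Fgfr1 value between -0.14 and 0.16 and the Fgfr2 value between -0.32 and 0.15. The 8 sign changes belonged to receptors that did not pass: Fgfr1 (0.02 after quantile normalization, 0.03 without proliferating replicate 3, 0.16 without differentiated replicate 3 and 0.14 over all its probe sets), Fgfr2 (0.11 without proliferating replicate 1, 0.15 without differentiated replicate 2 and 0.06 over all its probe sets) and Fgfr4 (0.19 over all its probe sets). Limma without an intensity trend called 2669 probe sets in place of 5659, and 3 member probe sets in place of 5. Under it the counts of called genes were 2 co-receptors, 0 adaptors, 1 gene of the Ras-ERK cascade, 3 other inhibitors and 7 ERK-responsive genes. With 0 adaptors called by that fit, the main fit called 2. A threshold of 1.5-fold left 3 member probe sets and 1 adaptor.

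Leaving out 1 array gave 4254 to 4932 probe sets called of all tested, 3 to 6 member probe sets and 3 to 4 member genes. The lists had 3 ligands, 4 co-receptors, 1 to 2 adaptors, 2 to 3 cascade genes, 6 to 7 other inhibitors and 9 to 11 ERK-responsive genes. In some of these fits other genes than in the main one were called, namely Grb14 (-2.01 without differentiated replicate 1), Gab1 (0.83 without differentiated replicate 3) and Rps6ka3 (-0.5 without proliferating replicate 2). Outside those fits, Pebp1 was called lower after scaling to the 75th percentile (-0.41), with a pseudocount of 1, without dim probe sets and by the regularized t-test (-0.35 each), and Flrt2 (0.62) and Il17rd (0.8) were called higher without dim probe sets. All of these values are of the brightest probe set of a gene. For Gab1 and Flrt2 a dimmer probe set passed already in the main fit (0.99 and 0.73, adjusted p = 0.0095 and 0.0066). The cause of the shifts between fits was not tested.

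Same-numbered arrays of the groups hardly deviated together (r of 0.0007 to 0.013), so the numbers were not taken to pair the samples. Still, 4 of 6 arrays correlated best with their own number, and a weak pairing was not excluded. With a replicate block 5287 probe sets, 5 member probe sets and 4 member genes were called, and among the genes named Ksr1 (adjusted p = 0.058) and Egr1 (0.0567) lost their calls. No other scaling tried moved the median of all probe sets by more than 0.1 on the log2 scale. Signals near the background limit, as for Fgfr2, Fgfr3, Fgfr4, Spry4 and most FGF genes, could hide changes that these arrays cannot show.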

Other observations

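Receptors and ligands of other growth factors that signal through ERK were listed after the files were read. Of 6 receptor genes, 3 were higher in differentiated cells, 1 was lower and 2 did not pass, where 8.63% of all genes were called higher and 9.0% lower. Erbb3, a receptor for neuregulins, had signals of 203.6, 128.5 and 149.9 in proliferating and 1006.5, 1047.2 and 1066.6 in differentiated cells. The log2 fold change was 2.61 (SE 0.16, adjusted p = 2.5e-07), or 6.1-fold. Its dimmer probe set, at background on all arrays, gave 0.83 (adjusted p = 0.23). Pdgfrb and Pdgfra, the receptors for platelet-derived growth factor, went from 419 ± 32.1 to 1151 ± 235 (1.41, adjusted p = 2.4e-05) and from 114 ± 56.3 to 267 ± 27.7 (1.24, adjusted p = 0.023; SD, n = 3 each). The Pdgfra call was lost when any 1 differentiated array was left out (adjusted p = 0.0562 to 0.106). The dimmer probe set of Pdgfrb passed (1.33, adjusted p = 0.0066), while those of Pdgfra did not (0.47 and 0.4, adjusted p = 0.46 and 0.8). Met, the receptor for hepatocyte growth factor, fell from 1172 ± 178 to 596 ± 109 (-0.96, adjusted p = 0.00077). Egfr and Erbb2 had 0.13 and 0.19 and did not pass.

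Of 8 measured ligands of these receptors, 2 were lower and none was higher, where 9.0% of all genes were called lower and 8.63% higher. Hbegf, a ligand of the EGF receptor, went from 466 ± 38.5 to 249 ± 74.8 (-0.9, adjusted p = 0.0076), and Pdgfa from 847 ± 143 to 473 ± 59.1 (-0.82, adjusted p = 0.0016; SD, n = 3 each). The dimmer probe set of Pdgfa passed as well (-0.83, adjusted p = 0.00061), while that of Hbegf did not (-0.24, adjusted p = 0.64). Nrg1, a neuregulin, was at background on all arrays. Under limma without an intensity trend Met, Pdgfra, Hbegf and Pdgfa lost their calls (adjusted p = 0.0625 to 0.134).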
